A study of Mus musculus with 24 samples.

Results

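Potassium channel subunits and the subunits of the ATP-sensitive potassium channel (KATP channel) were described in alpha and beta cells of the mouse pancreatic islet across the day. The members were all rows of the gene table whose symbol was that of a potassium channel subunit (Kcn, a family letter or letters and a number) or of a sulfonylurea receptor (Abcc8 or Abcc9). The rule took 55 of 14027 rows, which carried 54 symbols because Kcnb2 was listed under both a current and a retired identifier. The annotation of the mouse genome holds 100 genes whose symbols match the rule, of which 95 code for proteins, and those outside the table, such as Kcnj8 and Abcc9, were not analysed here. The labels do not say how the genes of the table were chosen, so the number of members in it is a description and supports nothing.

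RNA came from the glucagon-secreting alpha cells and the insulin-secreting beta cells of a strain named triple reporter mouse, whose alleles, age and sex the labels do not state. Islets were isolated every 4 h over a day, at 6 zeitgeber times (ZT, hours on the light schedule) from ZT0 to ZT20. Each of the 12 combinations of cell type and time had 2 libraries, and the labels name no treatment. Whether both libraries of a combination stem from different animals is not stated, so every p-value reflects the spread from library to library, part or all of which may be technical.

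Potassium channels let potassium leave the cell and hold or restore the resting membrane potential. In beta cells, glucose metabolism raises ATP, ATP closes KATP channels, the membrane depolarises, and calcium entry triggers insulin release. Other potassium channels end action potentials (voltage-gated and calcium-activated), set the resting current (two-pore) or answer inhibitory receptors (G-protein-gated inward rectifiers), and auxiliary subunits change the gating and surface delivery of the pores. Alpha cells also carry KATP channels and fire action potentials.

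The libraries held 4944982 to 12364190 reads, with a median of 10448213. Levels are given as RPKM, the read density per kilobase of gene after scaling for the size of each library. Comparisons between genes, such as ratios, ranks and shares of a sum, depend on the gene lengths, which were those implied by the deposited values. Of 13802 identifiers found in the annotation, 4440 had the exon length given there. Kcnma1, for example, had 6394 bases against 16976 exon bases in the annotation. The 6 alpha markers were all higher in alpha libraries and the 7 beta markers in beta libraries. RNA of the other hormone was present at a low level: insulin RNA in alpha libraries was 0.158% to 2.02% of its mean in beta libraries, and glucagon RNA in beta libraries was 0.0293% to 1.52% of its mean in alpha libraries. The highest values were those of ZT4 replicate 1 in both cell types, followed in alpha cells by ZT16 replicate 1 with 1.42%. Alpha libraries also held more RNA of the markers of other islet cells: all 3 markers of PP cells and all 5 of delta cells were called higher there. Whether PP and delta cells or the alpha cells themselves made this RNA cannot be told apart in bulk libraries. The summed RPKM of the PP markers was 27826 to 59540 in alpha and 359 to 1730 in beta libraries, and that of the delta markers was 2513 to 5180 and 645 to 1421. Of the other lists in the table, 4 of 5 stromal, 2 of 3 duct and 2 of 2 glial markers were higher in alpha cells, 1 of 3 immune (Cd79a) and 1 of 3 neuronal markers (Tubb3) were higher in beta cells, and none of 4 acinar and 3 endothelial markers was called. The stromal sum was 4.21 to 7.35 RPKM against 0.374 to 1.03 RPKM, the duct sum 46.0 to 95.3 against 33.9 to 50.1, the glial sum 0.852 to 3.87 against 0.171 to 0.894, and the neuronal sum 22.7 to 33.9 against 42.0 to 56.2. No defining marker of PP or delta cells was at 0 in an alpha library, and the part of these cells in the differences between the cell types was not tested.

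The first comparison asked which subunits differ between alpha and beta cells. The dominant subunits were shared: Abcc8, Kcnk16 and Kcnj11 together made up 67.9% to 71.0% of the summed RPKM of all members in alpha libraries and 66.2% to 69.6% in beta libraries. Below them the repertoires diverged. In alpha cells the G-protein-gated subunit Kcnj3, the two-pore channel Kcnk3, the fast voltage-gated subunits Kcnc4 and Kcnd3 and the auxiliary subunit Kcnip3 were higher, with fitted folds of 11.4 to 95.7. In beta cells Kcnj12, the silent subunits Kcnf1 and Kcng3, Kcnj5, Kcnh5 and the auxiliary subunits Kcnip1, Kcnab3 and Kcnip2 were higher, with fitted folds of 11.0 to 55.1.

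Of the 55 rows, 35 (63.6%) were called different between the cell types by limma, with 0.05 as the limit of the adjusted p and a minimum fold of 2, where 20.7% of all genes in the table were called. Alpha cells had the higher level for 18 (11.2% of all genes) and beta cells for 17 (9.54% of all genes). All 35 kept 1 direction at each of the 6 times. For 28 rows no alpha library overlapped any beta library, against 26% of all genes. The median size of the log2 difference was 1.62 over the members and 0.42 over all genes, and the signed medians were 0.21 and 0.01. With no fold threshold 51 of the 55 rows passed, where 74.9% of all genes did. Low levels matter to these counts, since 14 rows were below 1 RPKM in both cell types, and so were 9 of the 18 rows called in alpha and 3 of the 17 called in beta cells. On a scale of log2(RPKM + 1), which shrinks low genes, 19 rows were called, and a filter on the mean level left 29 rows, of which 14 were called. The shares of all genes called under these settings are not given, so these counts cannot be set against the table.

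**Figure D1:**
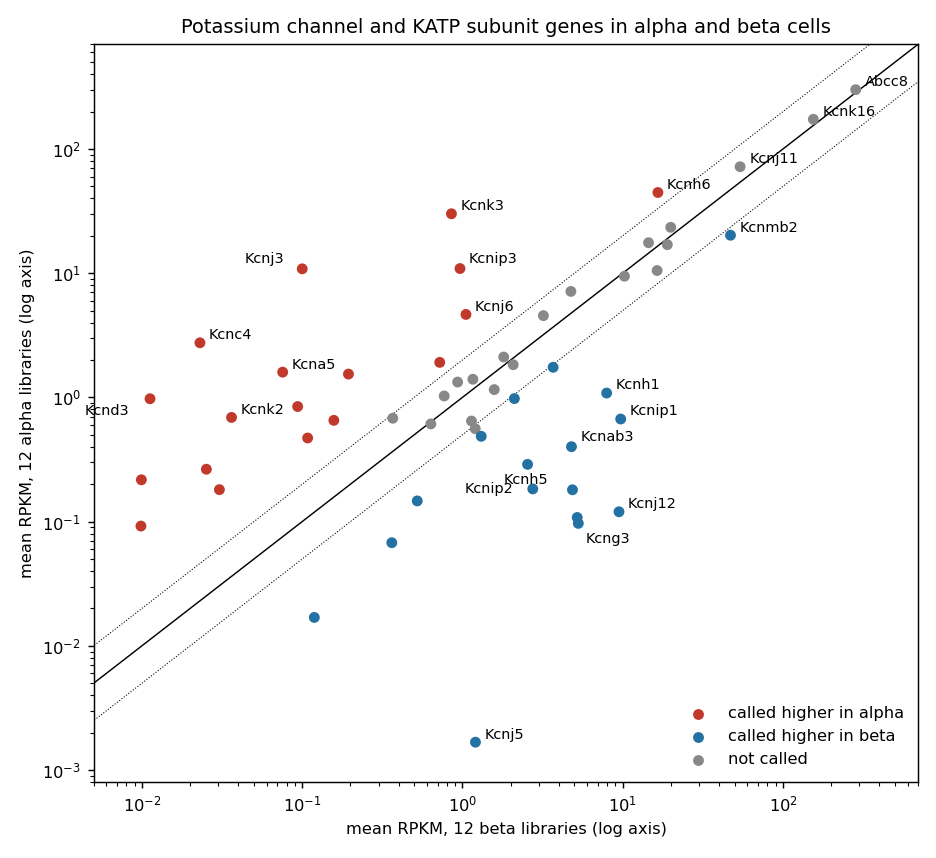
Mean RPKM of each of the 55 rows over 12 alpha libraries (vertical, log axis) against 12 beta libraries (horizontal, log axis). Red points were called higher in alpha and blue points higher in beta cells; the solid line marks equal levels and the dotted lines a 2-fold difference. Abcc8, Kcnk16 and Kcnj11 lie at the top near the line of equal levels, while Kcnj3 and Kcnk3 lie far to the upper left and Kcnj12 and Kcnj5 far to the lower right.

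The KATP channel is built from the pore Kir6.2, encoded by Kcnj11, and the regulatory sulfonylurea receptor SUR1, encoded by Abcc8, the target of sulfonylurea drugs. In the GENCODE annotation of GRCm38 both genes lie side by side on the minus strand, Kcnj11 at chr7:46093953-46100764 and Abcc8 at chr7:46104523-46180033. Abcc8 was the most abundant member in both cell types, with a lowest, median and highest value of 246, 306 and 357 RPKM in alpha and 228, 289 and 348 RPKM in beta libraries. The ranges overlapped almost fully, and the log2 difference of alpha minus beta was 0.08 (SE 0.0728, limma adjusted p = 0.35). Kcnj11 ranged from 61.2 through a median of 67.8 to 87.6 RPKM in alpha and from 46.8 through 54.4 to 63.8 RPKM in beta libraries. A single beta library, ZT4 replicate 1 with 63.8 RPKM, reached into the alpha range, and the other beta library of ZT4 had 58.7 RPKM. Replicate 1 was also the beta library with the most glucagon RNA, at 1.52% of the alpha mean, and a link between these values was not tested. The Kcnj11 mean was 72.0 ± 8.85 RPKM in alpha against 54.0 ± 5.43 RPKM in beta cells (SD, n = 12 libraries each), a log2 difference of 0.41 (SE 0.0548, limma adjusted p = 5.5e-07), or 1.33-fold, below the fold threshold. Abcc8 transcripts exceeded those of Kcnj11 in every library, by 2.87 to 5.69 times in alpha (median 3.98) and 3.89 to 6.76 times in beta cells (median 5.38). Neither gene was called rhythmic in either cell type.

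Kcnj12, Kcnj2 and Kcnj4 encode strong inward rectifiers of the Kir2 group, which stabilise the resting potential, and the group divided between the cell types. Kcnj12 (chr11:61022564-61071131, plus strand) had 0, 0.0726 and 0.355 RPKM as the lowest, median and highest alpha value and 6.12, 9.73 and 12.2 RPKM in beta cells. Every beta library lay far above every alpha library, with a log2 difference of -5.78 (SE 0.21, limma adjusted p = 5.9e-17). The highest Kcnj12 values in alpha cells, 0.355 and 0.296 RPKM, were in the libraries of ZT4 and ZT16 replicate 1, the same that held the most insulin RNA. Kcnj2 and Kcnj4 went the other way at levels near or below 1 RPKM. Kcnj2 had a mean of 0.844 RPKM in alpha against 0.0938 RPKM in beta cells (log2 2.81), and Kcnj4 of 0.654 and 0.158 RPKM (log2 1.62, with overlapping libraries).

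GIRK channels are the inward rectifiers opened by G-protein-coupled receptors such as those for somatostatin and adrenaline, and they assemble from Kcnj3, Kcnj5 and Kcnj6 products in islet cells and elsewhere. Kcnj3 (chr2:55435970-55598145, plus strand) had the largest fitted fold of all members, 95.7, on the deposited scale with its prior count. By the ratio of mean RPKM, without a prior count, Kcnj5 (719) and Kcnc4 (119) exceeded Kcnj3 (108). Kcnj3 had 9.52, 10.8 and 12.5 RPKM as lowest, median and highest alpha value, and 0, 0.0708 and 0.346 RPKM in beta libraries. The groups did not overlap, with a log2 difference of 6.58 (SE 0.241, limma adjusted p = 8.9e-17). The highest beta value of Kcnj3 was again in ZT4 replicate 1, the beta library with the most glucagon RNA. In the annotation, 31.1% of the exon bases of Kcnj3 also lie in Gm26794, a gene on the opposite strand that is in the table. Whether the counting used the strand is not stated.

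Kcnj6 was higher in alpha cells as well, with 2.33, 4.39 and 7.94 RPKM against 0.671, 1.01 and 1.52 RPKM in beta cells (lowest, median, highest), a 4.09-fold difference without overlap (log2 2.03, SE 0.142, limma adjusted p = 9.8e-12). Kcnj5 was the beta member of the group. It was at 0 in 11 of the 12 alpha libraries and had a single read in the other, against 0.320, 1.01 and 2.76 RPKM in beta cells. With 631 reads in beta and 1 in alpha libraries, the ratio per library size was 710, with an exact 95% interval of 127 to 28077 that covers counting error only. The sum of the 3 GIRK subunits was 13.4 to 19.1 RPKM in alpha and 1.38 to 3.94 RPKM in beta libraries. Kcnj3 held a median of 69.0% of that sum in alpha cells and Kcnj6 31.0%, while in beta cells Kcnj6 held 48.3% and Kcnj5 47.7%. In a bulk library, fewer cells of a type and less RNA per cell cannot be told apart.

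**Figure D2:**
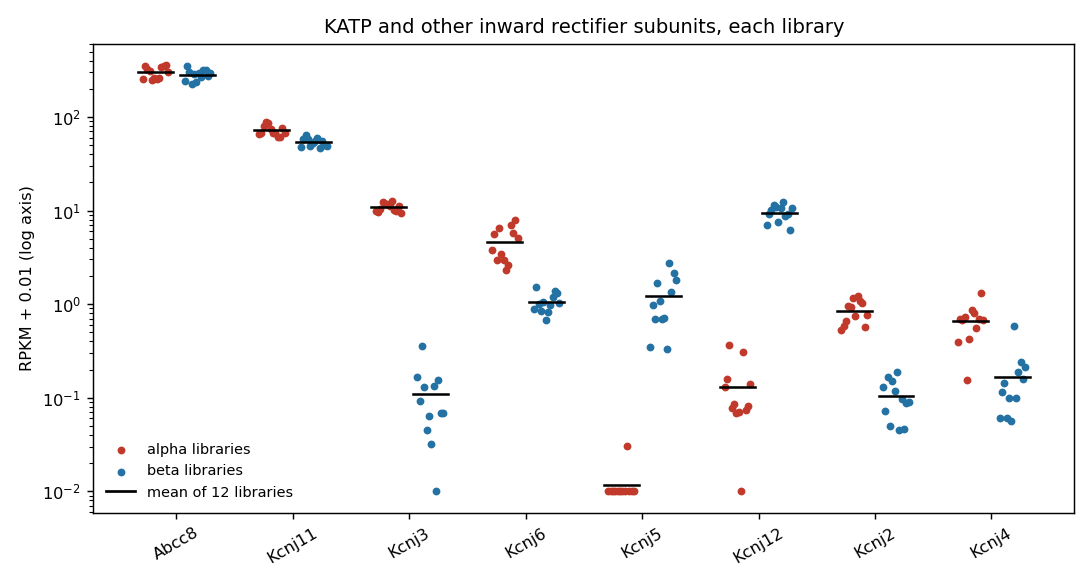
RPKM + 0.01 (log axis) of the KATP subunits and the other inward rectifier subunits in each of 12 alpha (red) and 12 beta (blue) libraries, in order of zeitgeber time within a group, with the mean as a black bar. Abcc8 and Kcnj11 overlap between the cell types, Kcnj3 and Kcnj6 are higher in every alpha library, and Kcnj5 and Kcnj12 are higher in every beta library.

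Two-pore channels carry background potassium current, and 3 of 6 were called. Kcnk16 encodes TALK-1, a channel named for its activation by alkaline pH and found mainly in the pancreas. It was the most abundant pore-forming member, with 152, 165 and 214 RPKM (lowest, median, highest) in alpha and 125, 156 and 194 RPKM in beta libraries. The ranges overlapped, with a log2 difference of 0.17 (SE 0.0622, limma adjusted p = 0.02), or 1.12-fold. Kcnk16 alone made up a median of 38.5% of the RPKM of all pore-forming members in alpha and 42.4% in beta cells.

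Kcnk3 (TASK-1, closed by acid; chr5:30588170-30625271, plus strand) separated the cell types most clearly by p among the members. Its lowest, median and highest values were 23.6, 30.7 and 34.4 RPKM in alpha and 0.532, 0.808 and 1.67 RPKM in beta libraries. No libraries overlapped, with a log2 difference of 5.10 (SE 0.117, limma adjusted p = 2.7e-20). The highest beta value of Kcnk3 lay, as for Kcnj3, in ZT4 replicate 1. Kcnk2 (TREK-1, sensitive to stretch and lipids) had means of 0.690 RPKM in alpha and 0.0363 RPKM on the beta side, a 9.04-fold difference. Kcnk13 (THIK-1, inhibited by halothane) was 2.33-fold higher in beta cells, with 0.391, 1.18 and 3.45 RPKM against 0.119, 0.506 and 0.821 RPKM and overlapping libraries (limma adjusted p = 1.3e-06). Its close relative Kcnk12 had 7.13 RPKM in alpha against 4.75 RPKM in beta cells (1.53-fold), and Kcnk1 had 17.6 RPKM against 14.5 RPKM (1.22-fold). Both passed the adjusted p and missed the fold threshold.

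Voltage-gated subunits of the Kv1 to Kv6 groups made up 15 rows, of which 6 were called higher in alpha and 4 in beta cells. Kcnb2 (Kv2.2, a delayed rectifier) was 2.13-fold higher in beta cells in both of its rows, with means of 1.75 RPKM (alpha) and 3.68 RPKM (beta) in the current row. Reads may be shared between the rows of this gene.

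Silent subunits form no channel alone and modify the Kv2 pores. Kcnf1 (Kv5.1) had 0, 0.0904 and 0.297 RPKM as the lowest, median and highest alpha value and 3.38, 5.18 and 7.16 RPKM in beta cells. Kcng3 (Kv6.3) had 0, 0.0967 and 0.238 RPKM in alpha and 3.61, 5.30 and 6.63 RPKM in beta cells. Both were present in every beta library and near 0 in alpha cells, with log2 differences of -5.29 (SE 0.237, limma adjusted p = 2.9e-15) and -5.27 (SE 0.144, limma adjusted p = 5e-19).

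The alpha side of this family held the fast or inactivating pores Kcnc4, Kcnd2 and Kcnd3 and the Kv1 pores Kcna1, Kcna5 and Kcna6. Kcnc4 (Kv3.4; chr3:107438303-107459552, minus strand) had 1.70, 2.56 and 4.81 RPKM in alpha libraries and 0 to 0.0717 RPKM, with a median of 0, in beta libraries. In reads, 1097 fell on Kcnc4 in alpha and 8 in beta libraries, a ratio per library size of 122 with an exact 95% interval of 61.7 to 283. Kcna5 (Kv1.5, a delayed rectifier) had 1.30, 1.61 and 1.81 RPKM in alpha and 0.0274, 0.0869 and 0.105 RPKM in beta cells, an 18.2-fold difference without overlap (limma adjusted p = 5.9e-17). The A-type pores of the Kv4 group differed by member: Kcnd3 was 0.976 RPKM in alpha against 0.0112 RPKM in beta cells, with 1250 reads against 13, Kcnd2 was 3.60-fold higher in alpha cells, and Kcnd1 differed by 1.38-fold. Kcna1 and Kcna6 were called higher in alpha cells at mean levels of 0.264 and 0.217 RPKM. Of Kcna6 and Kcnd3, 39.6% and 1.72% of the exon bases lie in annotated antisense genes outside the table.

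Kcnq genes encode the slow, muscarine-sensitive type of current. Of the 4 rows, 1 was called in alpha and 2 in beta cells. Kcnq1 was called higher in beta cells at 0.363 RPKM against 0.0677 RPKM, and Kcnq5 differed by 1.36-fold.

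Kcnh genes encode the EAG, ERG and ELK channels, a family named after the ether-a-go-go mutant of the fly. Of the 3 ERG genes 2 were called in alpha cells, and both EAG genes were called in beta cells. Kcnh6 (ERG2; chr11:106008124-106034549, plus strand) was the fourth most abundant member in alpha cells, with 31.0, 41.2 and 62.4 RPKM against 12.1, 15.8 and 22.9 RPKM in beta cells (lowest, median, highest). The libraries did not overlap, at a log2 difference of 1.41 (SE 0.113, limma adjusted p = 1.4e-10). Kcnh7 (ERG3) was 4.70-fold higher in alpha cells but at 0.0921 RPKM, and Kcnh2 (ERG1) differed by 1.18-fold, at 23.4 RPKM and 19.9 RPKM. Kcnh1 (EAG1) had 0.664, 1.08 and 1.68 RPKM in alpha and 5.48, 7.85 and 10.6 RPKM in beta cells, 7.27-fold higher in beta cells (limma adjusted p = 5e-17). Kcnh5 (EAG2) had 0.0591, 0.150 and 0.320 RPKM in alpha and 3.35, 4.93 and 6.53 RPKM in beta cells, 22.8-fold higher (limma adjusted p = 4.2e-16). Neither EAG gene had overlapping libraries.

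Of the calcium- and sodium-activated channels 3 of 7 were called. Kcnma1, the pore of the large-conductance BK channel, had means of 10.5 RPKM in alpha against 16.4 RPKM in beta cells, a log2 difference of -0.66 (SE 0.0631, limma adjusted p = 3e-09) below the fold threshold. Kcnn2 (a small-conductance SK channel) was 2.51-fold higher in alpha cells, with 1.30, 1.73 and 2.96 RPKM against 0.512, 0.691 and 1.08 RPKM and no overlap. Kcnn3, the most abundant SK gene, was alike at 9.45 RPKM and 10.2 RPKM (limma adjusted p = 0.42). Kcnt1 and Kcnn4 were called, in alpha and beta cells, at means of 0.181 and 0.523 RPKM in the higher cell type.

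**Figure D3:**
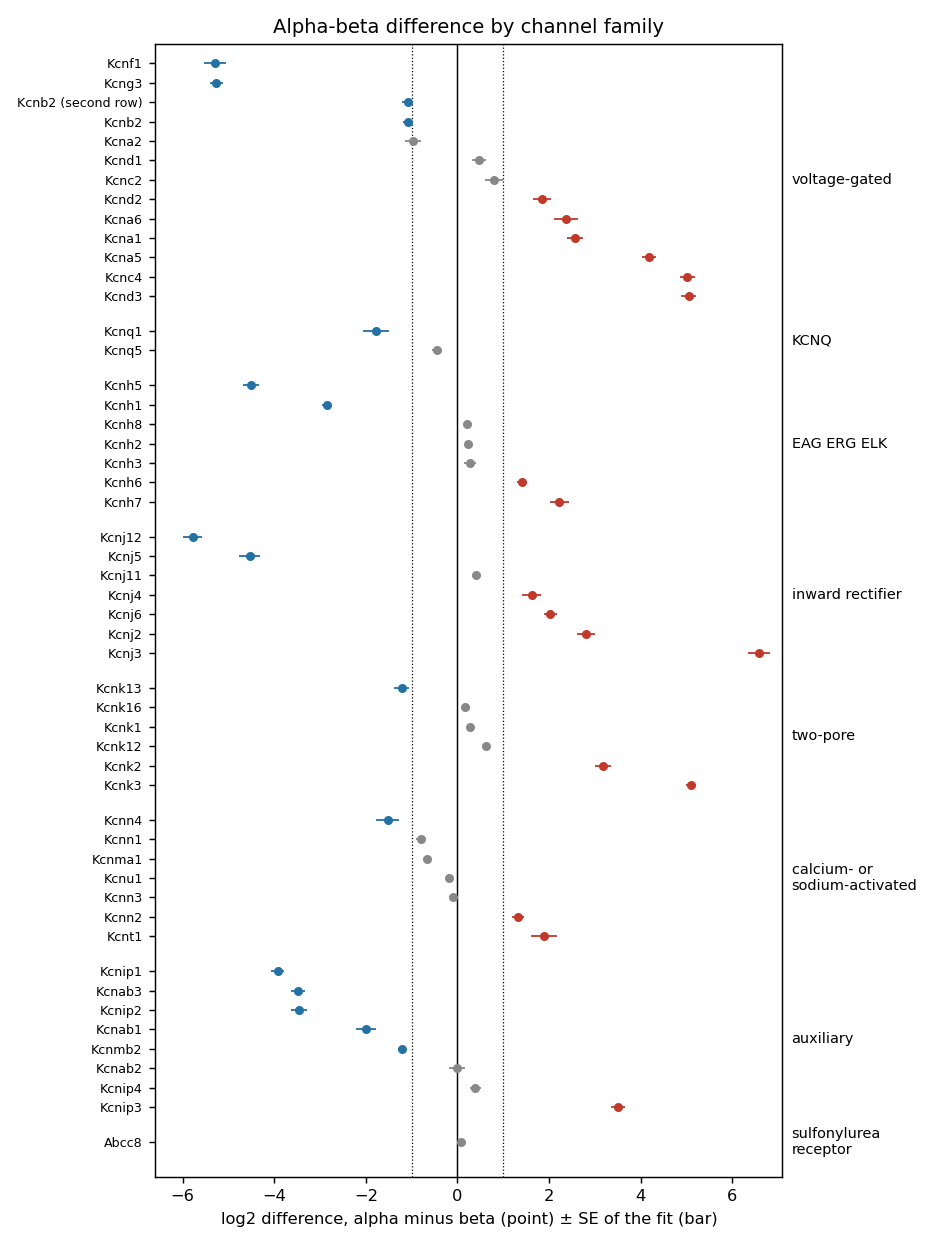
Log2 difference of alpha minus beta cells for 51 of the 55 rows by channel family, with the standard error of the limma fit as a bar. Red points were called higher in alpha, blue points higher in beta, and grey points were not called; dotted lines mark a 2-fold difference. Among the rows drawn, most families have called members on both sides of 0: voltage-gated, EAG, ERG and ELK, inward rectifier, two-pore, calcium- or sodium-activated and auxiliary subunits.

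Auxiliary subunits held 8 rows, with 5 called in beta cells and 1 in alpha cells. The KChIP proteins, encoded by Kcnip1 to Kcnip4, bind calcium and shape Kv4 currents; Kcnip3 is also known as the transcriptional repressor DREAM. Their summed RPKM was similar, 10.2 to 15.3 in alpha and 11.7 to 17.9 in beta libraries, but different genes filled it. Kcnip3 held a median of 83.9% of the sum in alpha cells and 5.91% in beta cells. Kcnip1 held 69.8% and Kcnip2 16.5% in beta cells, against 5.30% and 1.36% in alpha cells.

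In values, Kcnip3 had 8.50, 10.3 and 13.9 RPKM (lowest, median, highest) in alpha and 0.528, 0.828 and 1.76 RPKM in beta libraries, a log2 difference of 3.50 (SE 0.153, limma adjusted p = 1.9e-15). Kcnip1 (chr11:33629339-33993152, minus strand) had 0.351, 0.608 and 1.20 RPKM in alpha and 8.22, 9.65 and 11.3 RPKM in beta libraries, a log2 difference of -3.93 (SE 0.138, limma adjusted p = 3.3e-17). Kcnip2 had 0.0499, 0.171 and 0.413 RPKM in alpha and 1.01, 2.33 and 5.40 RPKM in beta libraries, a log2 difference of -3.46 (SE 0.18, limma adjusted p = 4.6e-14). None of these 3 genes had overlapping libraries. The pores that KChIPs bind moved otherwise: the summed RPKM of Kcnd1 to Kcnd3 had a median of 2.79 in alpha and 0.972 in beta cells, below the KChIP sum in both.

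Kcnab genes encode cytoplasmic subunits of Kv1 channels that resemble aldo-keto reductases. Kcnab3 had 0.190, 0.378 and 0.738 RPKM in alpha and 2.84, 4.77 and 5.92 RPKM in beta libraries, 11.1-fold higher in beta cells without overlap (limma adjusted p = 3.5e-15). Kcnab1 was called higher in beta cells at 0.119 RPKM against 0.0169 RPKM, and Kcnab2 had 0.612 and 0.635 RPKM in alpha and beta cells (limma adjusted p = 0.96). Kcnmb2 (chr3:31902507-32200180, plus strand), the auxiliary subunit that inactivates BK channels, was the fourth most abundant member in beta cells. Its values were 13.4, 19.1 and 30.1 RPKM in alpha and 29.8, 45.7 and 64.8 RPKM in beta libraries, 2.31-fold higher in beta cells with a narrow overlap (limma adjusted p = 3e-12).

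**Figure D4:**
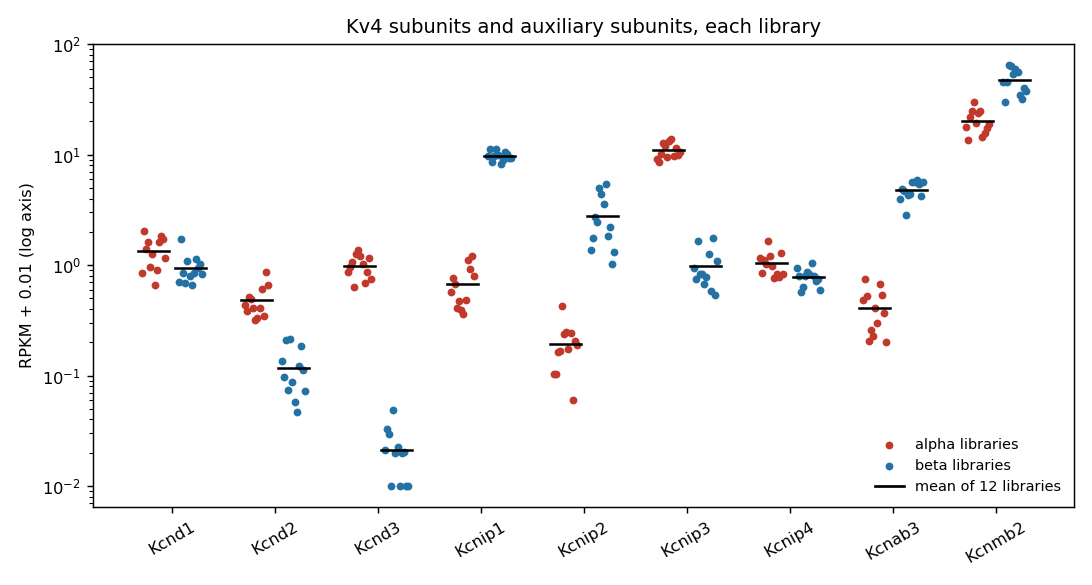
RPKM + 0.01 (log axis) of the Kv4 pores (Kcnd1 to Kcnd3), the KChIP genes (Kcnip1 to Kcnip4), Kcnab3 and Kcnmb2 in each of 12 alpha (red) and 12 beta (blue) libraries, in order of zeitgeber time within a group, with the mean as a black bar. Kcnip3 stands near 10 RPKM in alpha cells and Kcnip1 near 10 RPKM in beta cells, with no overlap for either gene.

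Across the called members, the level in the lower cell type was 0.139% to 47.5% of that in the higher one. For 3 members called in beta cells (Kcnj5, Kcnj12 and Kcng3) it was below 2.02%, the highest insulin level in an alpha library. For 3 called in alpha cells (Kcnc4, Kcnj3 and Kcnd3) it was below 1.52%, the highest glucagon level in a beta library. The member levels are means over 12 libraries, and the mean hormone levels were lower, 0.657% for insulin and 0.229% for glucagon. Kcnj5 (0.139%) lay below the insulin mean, while Kcnj12 (1.27%) and Kcng3 (1.83%) lay above it. Kcnc4 (0.837%), Kcnj3 (0.924%) and Kcnd3 (1.15%) lay above the glucagon mean. Not every strongly separated member was highest in the libraries with the most RNA of the other hormone. In beta ZT4 replicate 1, Kcnc4 had 0 reads and Kcnd3 0.0193 RPKM, against 0.0392 RPKM for Kcnd3 in beta ZT8 replicate 1. Kcna5 had 0.0482 RPKM in beta ZT4 replicate 1 and 0.105 RPKM in beta ZT16 replicate 1. Among alpha libraries Kcnh5 was highest in ZT16 replicate 2. A link to the hormone RNA was not tested. Without the 3 libraries that held most RNA of the other hormone, 35 rows were called, 18 in alpha and 17 in beta cells.

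Genes that work with these channels were counted from the same fits, in which 20.7% of all genes were called, and the counts of these short lists are descriptions only. Of 15 listed channel partners 10 were in the table, with 3 called in alpha and 1 in beta cells. The Kv4 partners Dpp10 and Dpp6 were 9.23-fold and 2.87-fold higher in alpha cells, at 37.2 RPKM against 4.03 RPKM and 2.85 RPKM against 0.984 RPKM. Stx1a, a plasma membrane protein of exocytosis, was 2.92-fold higher in alpha cells, and Vapb, of the endoplasmic reticulum membrane, was 2.41-fold higher in beta cells. Of 19 listed potassium pumps, cotransporters and their relatives 16 were in the table, with 1 called in alpha and 3 in beta cells, a share near that of all genes. In beta cells these were the potassium-chloride cotransporter Slc12a7, 10.9-fold higher at 27.9 RPKM against 2.60 RPKM, and the sodium pump subunits Atp1b2 and Atp1b1, by 2.24-fold and 2.09-fold. Either list had a median log2 difference near 0 (-0.02 and -0.20).

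The second comparison asked which members follow a daily rhythm, tested by fitting a cosine with a 24 h period to either cell type. Kcnip2, Kcnk12, Kcnn3 and Kcnmb2 were higher around ZT8 in beta cells, Kcnk13 was higher around ZT0 there, and Kcnip1 was higher at ZT16 and ZT20 in alpha cells. Kcnma1 was higher at ZT16 and ZT20 in both. By limma, 6 of 55 rows (10.9%) were called rhythmic in alpha cells at an adjusted p under 0.05, where 9.66% of all genes were, and 7 (12.7%) in beta cells, where 16% were. These shares were near those of all genes, so the number of rhythmic members is no result about the channels. At an unadjusted p under 0.05 there were 17 and 12, with no share of all genes given beside them. The number in alpha cells was 1 without replicate 1 of ZT8 or of ZT20, and 1 to 9 over all alpha and beta libraries left out in turn. In all 12 members were called in either cell type, and Kcnma1 was the 1 called in both.

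Kcnk12 (THIK-2, a two-pore subunit with little current of its own) had the lowest p in beta cells. Its replicates were 4.07 and 4.27 RPKM at ZT0, 5.09 and 5.38 at ZT4, 7.07 and 6.16 at ZT8, 5.62 and 5.74 at ZT12, 3.20 and 3.80 at ZT16, and 3.03 and 3.57 at ZT20. Every library of ZT4 to ZT12 lay above every library of the other times. The fitted peak was at ZT7.7 ± 0.5 h (SE), with a peak-to-trough ratio of 1.99 (limma adjusted p = 5.9e-05). In alpha cells Kcnk12 stayed between 5.75 and 8.09 RPKM and was not called.

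Kcnip2 had the widest rhythm in beta cells. Its replicates were 1.37 and 1.76 RPKM at ZT0, 2.73 and 2.46 at ZT4, 4.94 and 4.42 at ZT8, 3.55 and 5.40 at ZT12, 1.81 and 2.20 at ZT16, and 1.01 and 1.30 at ZT20. Libraries of ZT8 and ZT12 were the highest and those of ZT20 the lowest, with a fitted peak at ZT9.2 ± 0.6 h (SE) and a peak-to-trough ratio of 4.08 (limma adjusted p = 0.0012). Kcnip1, the more abundant KChIP gene of beta cells, was not called there. In alpha cells, where it was low, Kcnip1 was called with a peak at ZT19.5 ± 0.6 h (SE) and a ratio of 2.52 (limma adjusted p = 0.0029): its replicates were 1.11 and 0.918 RPKM at ZT16, 1.20 and 0.779 at ZT20, and 0.351 to 0.761 at the other times.

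Kcnk13, the relative of Kcnk12, peaked at another time of day in beta cells, at ZT22.9 ± 0.7 h (SE), with a ratio of 3.46 (limma adjusted p = 0.0057). Its replicates were 3.45 and 1.95 RPKM at ZT0, 1.16 and 1.20 at ZT4, 0.997 and 0.525 at ZT8, 0.843 and 0.391 at ZT12, 0.957 and 1.28 at ZT16, and 1.67 and 1.29 at ZT20. The ZT0 libraries were the highest, and they differed from each other by more RPKM than those of any other time. In alpha cells Kcnk13 was not called, with a fitted peak also at ZT22.9 and a ratio of 2.22 (limma adjusted p = 0.079). Kcnn3, an SK channel, had beta values of 11.2 to 13.1 RPKM at ZT4, ZT8 and ZT12 and 6.42 to 11.2 RPKM at the other times, with a peak at ZT6.9 ± 0.8 h (SE) and a ratio of 1.65 (limma adjusted p = 0.01). Testing time as a factor of 6 levels in place of a cosine gave Kcnn3 an adjusted p of 0.057.

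The pore and the auxiliary subunit of BK channels peaked at opposite times of the day in beta cells. Kcnma1 replicates in beta cells were 15.5 and 19.8 RPKM at ZT0, 15.1 and 14.6 at ZT4, 14.5 and 11.1 at ZT8, 13.5 and 12.5 at ZT12, 20.9 and 20.7 at ZT16, and 19.5 and 19.0 at ZT20. In alpha cells Kcnma1 had 9.48 and 10.4 RPKM at ZT0, 9.16 and 12.7 at ZT4, 8.35 and 7.41 at ZT8, 6.91 and 7.86 at ZT12, 14.1 and 13.2 at ZT16, and 14.0 and 12.5 at ZT20. The libraries of ZT8 and ZT12 were the lowest in both cell types, and the highest was a library of ZT16. The fitted peaks of Kcnma1 were ZT19.8 ± 1.0 h in beta and ZT20.3 ± 0.9 h in alpha cells (SE), with ratios of 1.63 and 1.69 (limma adjusted p = 0.026 in each). Leaving out ZT8 replicate 1 or 2 or ZT20 replicate 1 of the alpha cells gave the alpha rhythm an adjusted p of 0.066 to 0.075, and leaving out ZT8 replicate 2 or ZT16 replicate 1 or 2 of the beta cells gave the beta rhythm 0.056 to 0.082.

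Kcnmb2 had beta values of 45.7 and 29.8 RPKM at ZT0, 45.8 and 64.8 at ZT4, 63.9 and 53.9 at ZT8, 60.0 and 55.6 at ZT12, 34.9 and 31.8 at ZT16, and 40.3 and 37.8 at ZT20. Its peak was at ZT7.8 ± 0.9 h (SE) with a ratio of 1.80 (limma adjusted p = 0.02, and 0.057 without ZT8 replicate 1 of the beta cells). In alpha cells Kcnmb2 was not called, with a fitted peak at ZT8.1 and a ratio of 1.63 (limma adjusted p = 0.062). Kcnmb2 transcripts exceeded those of Kcnma1 by 4.42 to 4.84 times in the beta libraries of ZT8 and ZT12 and by 1.54 to 2.07 times in those of ZT16 and ZT20. In alpha libraries the same ratio was 2.61 to 3.61 and 1.02 to 1.51. These ratios are a description, and no test of them was made.

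The other called rhythms were less stable. In alpha cells Kcnj6 peaked at ZT20.7 with a ratio of 2.21 (limma adjusted p = 0.042), Kcnh8 at ZT20.1 with 1.51 (0.045) and Kcng3 at ZT23.1 with 2.69 (0.044). The Kcng3 values in alpha cells were 0 to 0.238 RPKM and were highest in ZT4 replicate 1, the alpha library with the most insulin RNA. In beta cells Kcnh3, an ELK channel, peaked at ZT7.0 with a ratio of 1.92 (limma adjusted p = 0.045).

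For some members the ZT0 replicates stood apart in both cell types. Kcnh6 was 31.0 and 58.6 RPKM at ZT0 and 58.0 and 61.6 RPKM at ZT16 in alpha cells, and 12.1 and 22.9 RPKM at ZT0 and 20.9 and 21.7 RPKM at ZT16 in beta cells. Replicate 2 of ZT0 exceeded replicate 1 by 1.89 times in each cell type. Abcc8 showed 1.37 times in alpha and 1.43 times in beta cells. For both genes replicate 2 of ZT0 lay nearer to ZT16 than to replicate 1 in both cell types, and what set these libraries apart was not tested.

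**Figure D5:**
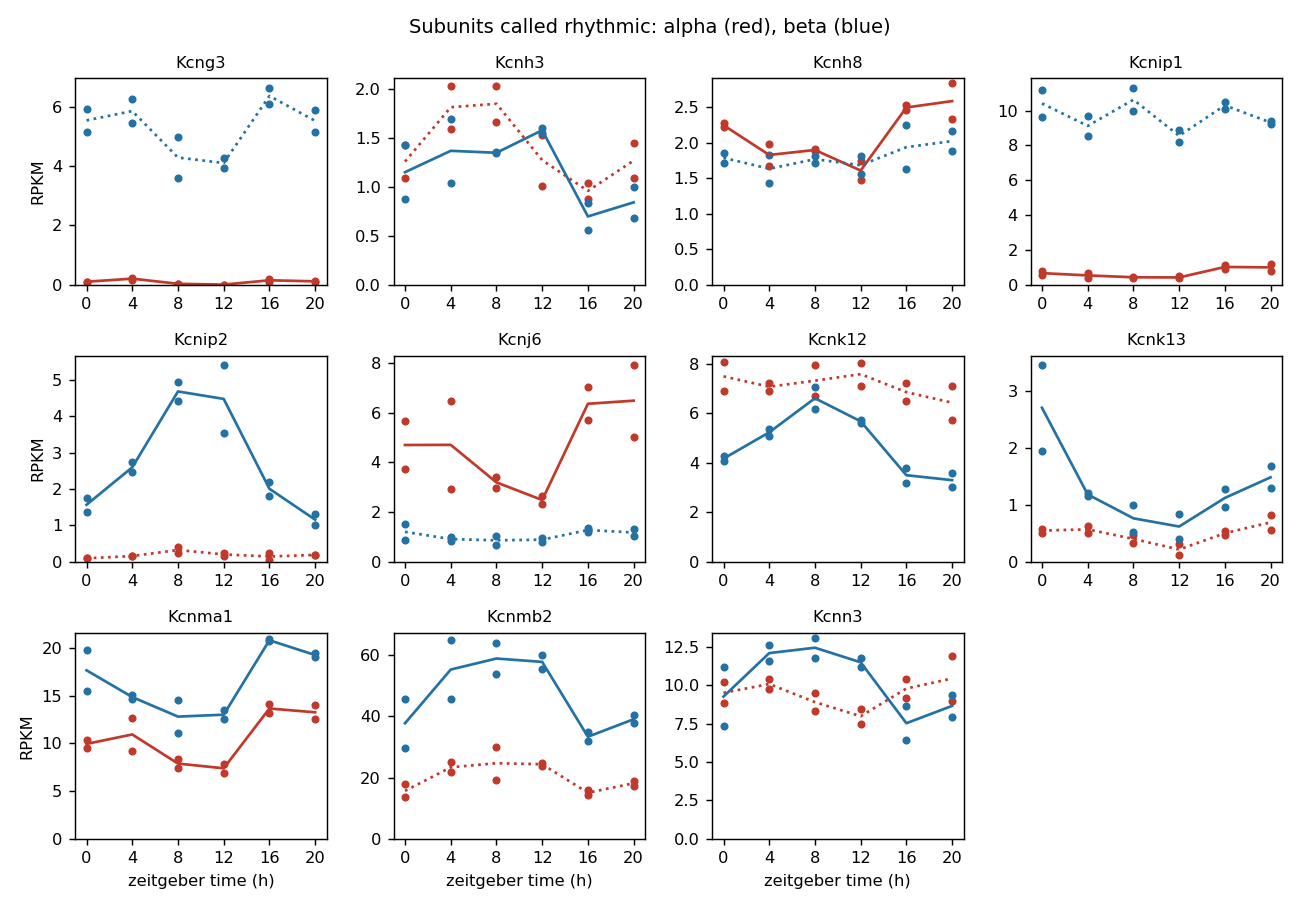
RPKM against zeitgeber time (h) for 11 of the members called rhythmic in alpha (red) or beta (blue) cells, with a point for each library and a line through the means of the 2 libraries, solid where the rhythm was called and dotted where it was not. Kcnk12, Kcnn3 and Kcnmb2 are high from ZT4 to ZT12 in beta cells, Kcnip2 is high at ZT8 and ZT12 there, and Kcnma1 is high at ZT16 and ZT20 in both cell types.

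The limma test of the difference between the alpha and beta rhythms called no member at the same threshold, where 0.0713% of all genes were called, and voom weights called none either. At an unadjusted p under 0.05 there were 7, with no share of all genes given beside them. The lowest adjusted p was 0.10 for Kcnk12, then 0.21 for Kcnn3 and Kcnip1. A rhythm called in 1 cell type is therefore not shown to be absent from the other.

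The DNA before the start of the gene is shown for 3 rhythmic members, Kcnk12 and Kcnip2 with daytime peaks in beta cells and Kcnma1, called in both cell types, since clock factors bind short motifs there. These are the 250 bases upstream of the RefSeq start in GRCm38.p6, given 5′ to 3′ on the strand of the gene. Kcnk12 is chr17:87797995-87798244, Kcnip2 is chr19:45816064-45816313 and Kcnma1 is chr14:24004206-24004455, each on the minus strand, and the start used for Kcnma1 lies inside the longer gene of the GENCODE annotation.
Kcnk12: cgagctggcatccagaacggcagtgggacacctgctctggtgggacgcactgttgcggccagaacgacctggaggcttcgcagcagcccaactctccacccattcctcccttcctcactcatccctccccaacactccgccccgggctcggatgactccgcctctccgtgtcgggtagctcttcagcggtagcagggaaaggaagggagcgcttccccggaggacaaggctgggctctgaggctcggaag
Kcnip2: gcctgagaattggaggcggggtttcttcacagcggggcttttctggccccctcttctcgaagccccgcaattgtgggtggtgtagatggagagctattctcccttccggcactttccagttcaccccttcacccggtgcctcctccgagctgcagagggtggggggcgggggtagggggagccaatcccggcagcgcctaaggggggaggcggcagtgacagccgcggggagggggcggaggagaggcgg
Kcnma1: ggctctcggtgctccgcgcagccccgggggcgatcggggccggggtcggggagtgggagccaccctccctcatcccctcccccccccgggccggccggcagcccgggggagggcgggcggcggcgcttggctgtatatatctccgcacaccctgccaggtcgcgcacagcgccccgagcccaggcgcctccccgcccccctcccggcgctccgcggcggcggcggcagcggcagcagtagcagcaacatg
Capitals would mark a motif, and none was found: the E-box CACGTG, bound by CLOCK and BMAL1, the half-site AGGTCA, bound by ROR and REV-ERB proteins, and the D-box TTATGTAA were searched on both strands. RefSeq promoters were matched for 10 of the 12 rhythmic members and for 38 of the 54 symbols. None of the 13 promoters of the rhythmic members held these letters in this window. Of 32851 promoters of the same length in the mouse genome, 6.02% held the E-box, 14.0% the half-site and 0.819% the D-box.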

How the data were processed

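RNA was sequenced from 12 alpha and 12 beta libraries, made, per the labels' protocols, with a stranded kit for total RNA depleted of ribosomal RNA. Per the submitters' processing notes, the authors used STAR, edgeR and mm10, with no versions. The authors deposited values in log2; their steps match log2 RPKM with a prior count of 2.0 on average. Whole reads were recovered for all 14027 genes (largest deviation from a whole number 8.1e-08, tolerance 1e-05), and RPKM was computed from them without a prior count. A log2 difference on the deposited scale understates the change of low genes.

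Tests used limma 3.58.1 in R 4.3.3 on the deposited values over all 14027 genes, with a variance trend, robust estimation and Benjamini-Hochberg adjustment. The cell types were compared with time as a factor. Rhythms were F-tests of the 24 h cosine terms of each cell type in one model. The code was tested on simulated data. Antisense and retired identifiers were checked in the GENCODE annotation of GRCm38.

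The members and lists were chosen with earlier results of these data known. Values are given for the KATP subunits, for up to 12 members with the largest fold in each direction among those called with at least 1 RPKM, for the 6 most abundant in each cell type and for the rhythmic ones. Other members, and those of the related lists with a called difference, were named after their values were seen. Some genes that the rule takes are counted but not reported here by name. Alternatives were other pseudocounts, a filter, voom weights, a replicate block, and libraries left out.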

Additional observations from a re-analysis of the deposited data

How the results depend on the processing

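The direction of all 35 called members held under every alternative run. The number called was 35 to 36 with any 1 library left out (18 in alpha and 17 to 18 in beta cells), 36 with limma voom on recovered reads and 35 without the 3 libraries that held most RNA of the other hormone, the last 2 alternatives chosen after the data were seen. It fell to 19 (8 in alpha, 11 in beta cells) on log2(RPKM + 1) and to 14 (6 and 8) among the 29 members with a mean log2 RPKM above 0. The counts under the alternatives are given without the shares of all genes. Without the fold threshold 28 members passed in alpha cells. Kcna2 (log2 -0.97) was called in 8 alternatives. Kcnab2, at -0.01, changed sign in 10 of the 24 fits that left out a library, with values between -0.12 and 0.05 over all 24.

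The 6 rhythms of alpha cells became 11 on log2(RPKM + 1), 3 without the 3 libraries named above, and 1 to 9 with 1 library left out. That number was 1 without ZT8 or ZT20 replicate 1 of the alpha cells, 2 without ZT8 or ZT16 replicate 2 and 3 without ZT12 replicate 1 or 2 or ZT16 replicate 1 of the alpha cells or ZT12 replicate 2 of the beta cells; these fits use fewer samples. The 7 rhythms of beta cells became 5 to 10. The difference of rhythm was called for 0 members with any library left out and for 1 on log2(RPKM + 1). Kcnip1 in alpha cells and Kcnk12, Kcnip2 and Kcnk13 in beta cells were called in all alternatives run, while the call was lost in 19 of 31 for Kcnh3, 18 of 30 for Kcng3, 15 of 31 for Kcnh8, 12 for Kcnj6, 3 for Kcnma1 in each cell type, and 1 each for Kcnn3 and Kcnmb2. The cause of these changes was not tested.

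With a block for each time and replicate number 35 members were called between cell types. For the rhythms the block was another: an offset between the replicate numbers within each cell type, shared by all times. With it 3 members were rhythmic in alpha and 6 in beta cells, and 0 differed in rhythm. That offset does not account for same-numbered alpha and beta libraries of a time deviating together. The deviations of same-numbered alpha and beta libraries correlated across genes with r = 0.647, 0.422, 0.338, 0.104, 0.186 and 0.0413 from ZT0 to ZT20. All 6 were above 0, a hint from the data that same-numbered libraries deviate together. The labels state no shared source and the value at ZT20 was only 0.0413, so the numbers were not treated as pairs. The planned edgeR fits with other scaling factors were not run, since count models were kept to deposited counts, and limma voom on the recovered reads was run in their place. Depth limits the members below 1 RPKM, where a few reads in the lower cell type set the fold.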
